A study of Mus musculus with 4 samples.

Results

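Among the open chromatin regions that both WT hearts shared, those whose peak was called in 1 of the 2 edKO hearts and missed in the other are described here. Cardiac nuclei were assayed by ATAC-seq, where a transposase (Tn5) cuts and tags accessible DNA, in whole hearts of C57BL/6 mice at postnatal day 0. WT hearts (WT 1 and WT 2, n = 2) were compared with edKO hearts (edKO 1 and edKO 2, n = 2), which lacked RXR alpha and RXR beta in cardiomyocytes only. The other cell types of the heart keep both receptors, and the sources used here give neither the driver of the deletion nor the sex of the hearts. Each library came from 1 heart, and the authors called peaks in each library on its own.

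Joining all peaks of the 4 libraries that shared 1 bp or more gave 53140 merged regions, in GRCm38 coordinates. Of these, 26149 were called in both WT hearts and lay within 100 kb of the start or end coordinate of a protein-coding gene. The calls in the edKO hearts divided them. A peak was called in exactly 1 edKO heart in 5459 regions (20.9%), of which 4109 (15.7% of the 26149) were kept in edKO 1 and 1350 (5.16%) in edKO 2. For comparison, 15913 regions (60.9%) were called in both edKO hearts and 4777 (18.3%) in neither. Because the calls themselves chose these regions, the counts are a description, and a missing call says only that a site did not reach the authors' threshold.

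Retinoid X receptors are nuclear receptors that bind DNA mostly as the partner of another receptor, among them the PPARs, LXRs, retinoic acid receptors and thyroid hormone receptors. Pairs with PPAR recognise a direct repeat of the hexamer AGGTCA with 1 base between the copies, called DR1. In the newborn heart, PPAR targets include genes for fatty acid uptake and oxidation, the fuel that replaces glucose and lactate after birth. Regions near such genes were therefore set beside those of 14 other gene lists, among them lists of markers for other cardiac cell types.

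The libraries were of unequal quality. There were 35279 peaks in the WT 1 list, 38809 in that of WT 2, 27473 in that of edKO 1 and 27142 in that of edKO 2. The pileup is the number of reads or fragments stacked at the summit of a peak, and was recovered from the authors' values. Its lowest local background, a measure of relative depth, was 1.81, 1.80, 1.51 and 1.92 in the same order. Over the 10000 strongest peaks of each list, the authors' fold had medians of 10.8, 11.5, 10.2 and 7.61, so edKO 2 had the weakest enrichment over background and edKO 1 the lowest background. The part of these differences in the calls described below was not tested, and depth, enrichment and genotype cannot be told apart with 2 hearts in a group.

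Upstream sequences are shown for 9 genes whose listed start site lay in a kept region with the summits of both WT peaks and of the edKO peak in or within 100 bp of the promoter window. They were the strongest such regions kept in edKO 1 (Gm7072, Tpi1 and Fkbpl) and in edKO 2 (Acsl1, Mlh3 and Ttyh2), and those of the fatty acid genes Slc27a1, Acadvl and Cd36, all kept in edKO 1. Each line gives the 250 bases before the start site, 5′ to 3′ on the gene's strand, from RefSeq (GRCm38.p6). Capitals mark matches on either strand to AGGTCA, to GGGCGG (the GC box), to CCAAT, or to DR1 (AGGTCA, any base, AGGTCA) with up to 2 mismatches.
Gm7072: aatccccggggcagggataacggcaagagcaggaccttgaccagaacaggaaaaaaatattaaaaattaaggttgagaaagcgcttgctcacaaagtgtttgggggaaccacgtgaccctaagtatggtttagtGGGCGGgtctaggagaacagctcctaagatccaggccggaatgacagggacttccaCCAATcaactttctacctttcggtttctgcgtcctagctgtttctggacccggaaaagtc
Tpi1: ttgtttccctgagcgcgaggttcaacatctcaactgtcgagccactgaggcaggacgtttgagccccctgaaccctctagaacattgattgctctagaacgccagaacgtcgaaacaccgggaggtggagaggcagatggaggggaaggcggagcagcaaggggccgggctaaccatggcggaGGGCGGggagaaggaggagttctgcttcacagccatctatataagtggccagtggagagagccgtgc
Fkbpl: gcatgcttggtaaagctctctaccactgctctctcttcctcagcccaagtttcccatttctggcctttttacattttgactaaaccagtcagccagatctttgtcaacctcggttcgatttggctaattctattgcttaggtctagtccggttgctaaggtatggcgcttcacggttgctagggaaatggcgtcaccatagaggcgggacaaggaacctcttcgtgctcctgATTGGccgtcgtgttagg
Acsl1: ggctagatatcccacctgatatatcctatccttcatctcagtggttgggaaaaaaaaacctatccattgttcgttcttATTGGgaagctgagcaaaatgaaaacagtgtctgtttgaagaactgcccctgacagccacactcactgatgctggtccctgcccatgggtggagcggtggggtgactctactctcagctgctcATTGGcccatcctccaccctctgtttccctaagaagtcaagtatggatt
Mlh3: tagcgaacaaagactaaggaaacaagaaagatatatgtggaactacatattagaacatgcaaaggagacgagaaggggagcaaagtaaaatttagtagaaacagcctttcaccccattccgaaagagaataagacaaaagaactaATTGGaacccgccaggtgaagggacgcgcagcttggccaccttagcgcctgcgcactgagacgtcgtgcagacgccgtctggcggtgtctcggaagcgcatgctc
Ttyh2: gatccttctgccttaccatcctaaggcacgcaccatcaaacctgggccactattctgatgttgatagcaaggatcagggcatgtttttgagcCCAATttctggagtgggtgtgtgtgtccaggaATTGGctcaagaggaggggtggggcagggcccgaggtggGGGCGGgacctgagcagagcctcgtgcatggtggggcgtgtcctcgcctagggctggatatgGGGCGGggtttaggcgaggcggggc
Slc27a1: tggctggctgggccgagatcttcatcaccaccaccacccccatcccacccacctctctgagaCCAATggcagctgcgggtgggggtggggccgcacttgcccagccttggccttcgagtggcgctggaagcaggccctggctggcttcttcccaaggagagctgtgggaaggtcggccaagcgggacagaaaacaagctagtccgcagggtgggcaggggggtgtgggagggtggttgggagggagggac
Acadvl: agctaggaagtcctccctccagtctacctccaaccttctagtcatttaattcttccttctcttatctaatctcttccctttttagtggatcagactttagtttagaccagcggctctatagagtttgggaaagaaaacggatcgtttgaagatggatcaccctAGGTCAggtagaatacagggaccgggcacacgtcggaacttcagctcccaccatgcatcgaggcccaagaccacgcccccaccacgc
Cd36: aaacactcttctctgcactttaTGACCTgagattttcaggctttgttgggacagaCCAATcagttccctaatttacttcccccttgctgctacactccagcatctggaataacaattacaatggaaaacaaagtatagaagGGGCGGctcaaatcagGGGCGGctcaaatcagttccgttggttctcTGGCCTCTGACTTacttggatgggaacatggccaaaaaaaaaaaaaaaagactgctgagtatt
The windows lie at chr17:22314843-22315092 (minus strand, Gm7072), chr6:124814159-124814408 (minus, Tpi1), chr17:34644564-34644813 (plus, Fkbpl), chr8:46490716-46490965 (plus, Acsl1), chr12:85270600-85270849 (minus, Mlh3), chr11:114675218-114675467 (plus, Ttyh2), chr8:71568621-71568870 (plus, Slc27a1), chr11:70015429-70015678 (minus, Acadvl) and chr5:17835897-17836146 (minus, Cd36).

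The half-site AGGTCA was found upstream of Acadvl, at -87 to -82 from the start site, and, on the reverse strand, upstream of Cd36 at -228 to -223. Cd36 also held the only DR1-like match of the 9 windows, at -63 to -51 with 2 mismatches. The Acsl1 window held CCAAT on the reverse strand at -172 to -168 and at -49 to -45 and no AGGTCA. Tpi1 held a GC box at -67 to -62, and Ttyh2 held GC boxes at -87 to -82 and -25 to -20. A match is a string of letters and was not tested as a binding site. The start sites of the Gm7072, Acsl1 and Cd36 windows are additional starts listed inside those genes, not at a gene end.

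The kept regions were weak in WT hearts, and those kept in edKO 2 were the weaker of the 2 kinds. The authors' −log10 p, the significance of a summit over its local background, had a median of 10.6 in WT 1 and 11.9 in WT 2 for regions kept in edKO 1. For regions kept in edKO 2 these medians were 8.90 and 9.62. Regions called in both edKO hearts had medians of 29.9 and 33.0, and regions called in neither 8.11 and 8.81. The strength of a region was taken as the mean, over both WT lists, of the percentile of its −log10 p. Its median was 45.4 for regions kept in edKO 1, 36.2 for regions kept in edKO 2, 77.2 for regions called in both edKO hearts and 31.9 for regions called in neither. Only 80 regions kept in edKO 1 and 8 kept in edKO 2 had a strength above 75, against 8643 called in both edKO hearts and 33 called in neither.

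When the 26149 regions were split by WT strength into 10 bins of equal size, the share called in exactly 1 edKO heart was 32.1% in bin 1 (the weakest), 39.2% in bin 3, 8.49% in bin 7 and 0.0382% in bin 10. Bin 10 held 1 such region, in Acsl1. The 2 edKO hearts took different parts of this range. The share of kept regions that edKO 1 had kept was 61.0% in bin 1 (839 regions), 77.3% in bin 4 (1002 regions) and 95% in bin 7 (222 regions). Over all strengths it was 75.3% (95% Wilson interval 74.1 to 76.4, which covers counting error only). The interval takes the regions as independent draws and leaves out the spread between hearts. Under other processing this share ran from 69.6% to 83.8%.

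**Figure D1:**
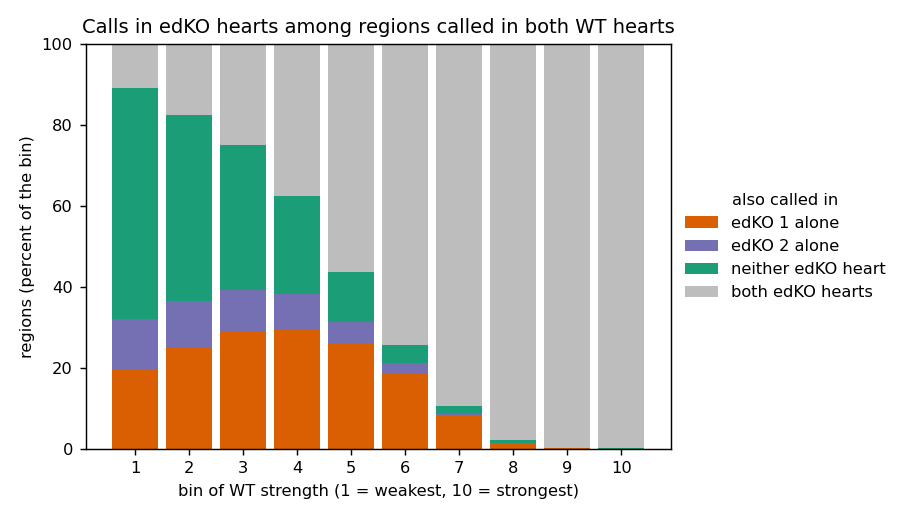
Regions called in both WT hearts, split into 10 bins of equal size by WT strength (x axis, weakest first), with the percentage of each bin called in both edKO hearts, in edKO 1 only, in edKO 2 only or in neither (y axis). Calls in exactly 1 edKO heart are most frequent in bin 3 (39.2%), and calls in edKO 1 only outnumber those in edKO 2 only in every bin but bin 10.

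The reverse loss was rarer in these lists. Of 16726 regions called in both edKO hearts and within 100 kb of a gene, 597 (3.57%) were called in exactly 1 WT heart, 235 in WT 1 and 362 in WT 2, and 216 in neither. The WT lists are longer than the edKO lists, and this count was not tested.

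The 2 kinds of kept region also lay in different places relative to genes. Of the regions kept in edKO 1, 16.4% were within 1 kb of a gene's start or end, 50.5% lay elsewhere over a gene and 33.2% were intergenic. Of those kept in edKO 2, 26% were near a gene end, 44.0% in a gene body and 30% intergenic. The median distance to a gene end was 11993 bp for regions kept in edKO 1, 7134 bp for edKO 2, 94 bp for regions called in both edKO hearts and 13631 bp for regions called in neither. The share near a gene end was thus 58.0% for regions called in both edKO hearts and 13.5% for regions called in neither, with the regions kept in edKO 1 close to the latter.

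This difference in position was also seen among regions of like WT strength. Between strengths of 30 and 60, edKO 1 alone kept 19% of the gene end regions, 30.6% of the gene body regions and 31.0% of the intergenic regions. In the same range edKO 2 alone kept 9.32%, 8.46% and 8.79%, nearly the same share of each class. Neither heart kept 14.4%, 31.6% and 32.0%. In this range calls in edKO 1 alone were more frequent away from gene ends. Calls in both edKO hearts were more frequent at gene ends, at 57.3%, 29.3% and 28.2% of the same classes. Among weaker regions the calls in edKO 2 alone were more frequent at gene ends. In bin 1 edKO 2 alone kept 18.5% of the gene end regions, 11.5% of the gene body regions and 10.5% of the intergenic regions. In bin 2 it kept 16.8%, 10.3% and 10.4%. These bins held 327 and 303 of the 1350 regions kept in edKO 2. In bin 1 edKO 1 alone kept 16.5%, 20.5% and 20%. These regions are not replicates, and the difference has no test.

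**Figure D2:**
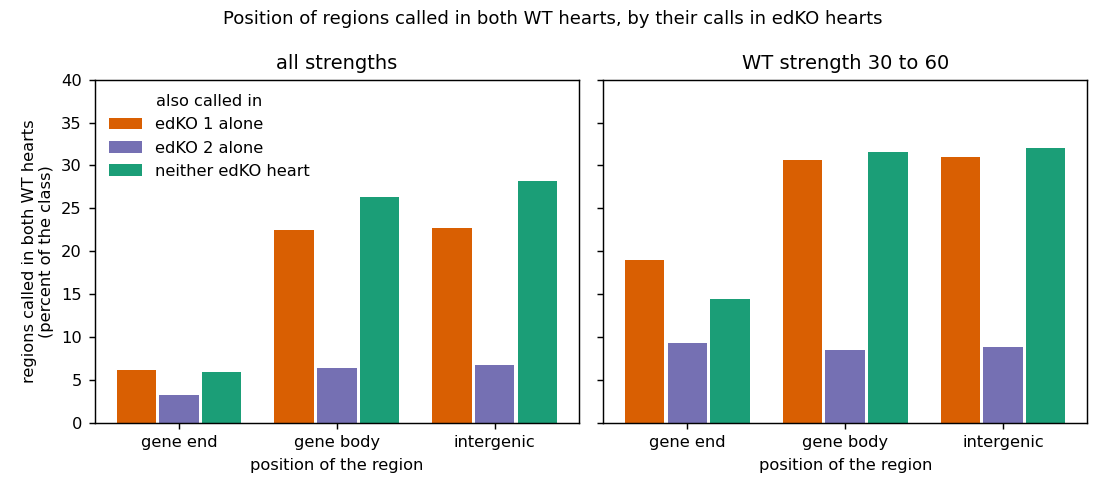
Share of the regions of each class (gene end, gene body or intergenic, x axis) called in both WT hearts that were also called in edKO 1 alone, in edKO 2 alone or in neither edKO heart (y axis, percent of the class), over all strengths (left) and for WT strengths of 30 to 60 (right). On the right, the bars for edKO 2 are nearly level (9.32%, 8.46% and 8.79%), while those for edKO 1 are lower at gene ends (19%) than over gene bodies (30.6%) or between genes (31.0%).

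Start sites listed by RefSeq lay in 10.5% of the regions kept in edKO 1, 16.4% of those kept in edKO 2, 51.4% of those called in both edKO hearts and 5.90% of those called in neither (chromosome 18, for which the promoter table has no rows, left out). The sequences at these starts differed in base composition. Over the 300 bases at each start (250 before it and 50 after), the median GC content was 55.5% for starts in regions kept in edKO 1, 62.8% in edKO 2, 63.3% in regions called in both edKO hearts and 55.3% in regions called in neither. The medians among regions with strengths of 30 to 60 were 55.3% (292 starts), 61.8% (128), 62.0% (1052) and 55.0% (141). The median number of CpG dinucleotides was 14 at starts kept in edKO 1 and 20.5 at starts kept in edKO 2. In GC content the starts kept in edKO 2 thus lay beside those called in all 4 hearts, and the starts kept in edKO 1 beside those called in neither edKO heart.

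**Figure D3:**
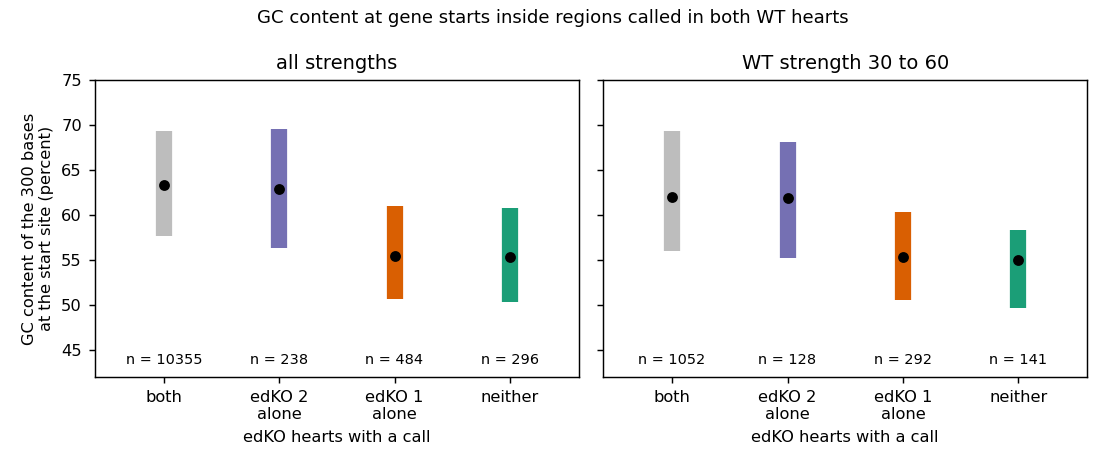
GC content (y axis, percent) of the 300 bases at RefSeq start sites inside regions called in both WT hearts, grouped by the edKO hearts with a call, over all strengths (left) and for WT strengths of 30 to 60 (right); points are medians, bars run from the lower to the upper quartile, and n is the number of starts. Over all strengths the median is 62.8% for starts kept in edKO 2 and 55.5% for those kept in edKO 1.

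Among the motifs searched, GGGCGG differed most between the 2 kinds of start. It was present in 44.4% of the 484 windows kept in edKO 1, 67.2% of the 238 kept in edKO 2, 73.2% of the 10355 windows in regions called in both edKO hearts, 44.3% of the 296 in regions called in neither and 35.9% of all 32619 windows in the table. CCAAT was present in 38.0% and 31.9% of the windows kept in edKO 1 and edKO 2, against 37.6% of all windows. The half-site AGGTCA was present in 12.2% of the windows of each kept kind, 10.6% of those called in both edKO hearts, 14.2% of those called in neither and 16.2% of all windows. DR1 with up to 2 mismatches, which can overlap AGGTCA, was present in 1.45% (7 windows) and 1.26% (3 windows) of the windows kept in edKO 1 and edKO 2, in 2.46% of those called in both edKO hearts, in 4.73% of those called in neither and in 3.89% of all windows. The exact DR1 was found in 0 windows of either kept kind and in 0.0399% of all windows. Both strands were searched for every motif. Windows with several starts in 1 region overlap, so these shares do not count independent sequences.

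Most kept peaks overlapped the peaks of both WT hearts directly. The edKO peak itself did so in 4077 of 4109 regions kept in edKO 1 and in 1305 of 1350 kept in edKO 2. An overlap with a WT peak was fixed by the rule that joined the peaks. The median distance from the edKO summit to the WT summits was 34 bp in edKO 1 and 54.5 bp in edKO 2, beside 33 bp and 40 bp between the summits of the 2 WT hearts at the same regions. The summit lay within 100 bp in 87.0% and 73.9% of regions, beside 89.7% and 83.3% of the regions called in all 4 hearts. It lay more than 200 bp away in 2.75% and 8.89%, beside 3.44% and 5.83%.

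The kept peaks had lower pileups than in WT hearts. The median summit pileup of regions kept in edKO 1 was 20 in WT 1, 22 in WT 2 and 14 in edKO 1, and that of regions kept in edKO 2 was 18, 19 and 14. A level scaled for depth was taken as the pileup divided by the lowest background of its library. The median ratio of the edKO level to the mean WT level was 0.795 for regions kept in edKO 1, close to the 0.782 that edKO 1 gave at regions called in all 4 hearts. It was 0.731 for regions kept in edKO 2, above the 0.535 that edKO 2 gave at regions called in all 4 hearts. A region that edKO 2 keeps must pass the threshold there, so these ratios are bounded by the choice of regions. The edKO level lay below both WT levels in 2671 of the 4109 regions kept in edKO 1 (65.0%) and in 1018 of the 1350 kept in edKO 2 (75.4%). This count was not made for regions called in all 4 hearts, so the shares cannot be read as particular to the kept regions. At regions called in all 4 hearts the upper quartile of the ratio was 0.907 in edKO 1 and 0.644 in edKO 2.

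Among strong regions the kept peak was much lower. For strengths above 75, the median ratio was 0.488 over the 80 regions kept in edKO 1 and 0.189 over the 8 kept in edKO 2, beside 0.774 and 0.490 at regions of that strength called in all 4 hearts. Since these regions were chosen for high WT strength and for a missing call, the lower ratios are a description.

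The 8 strong regions kept in edKO 2 included 4 assigned to genes of the fatty acid list or the list of PPAR and other RXR partner targets: Acsl1, Fabp3, Abca1 and Klf15. This was 50.0% of them. The same lists held 3 of the 80 strong regions kept in edKO 1 (3.75%), 7 of the 33 called in neither edKO heart (21.2%), 61 of the 8643 called in both (0.706%) and 75 of all 8764 strong regions (0.856%). Each of the 4 lost its edKO 2 call under at least 1 alternative processing, as did Plpp3 and Adamts15 among the 8. Gm31513 and Adamts3 kept the call in every alternative. Since earlier results of these data were known when the lists were chosen, the shares are a description.

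Acsl1, which activates long-chain fatty acids as acyl-CoA, held the strongest of all kept regions (chr8:46490748-46491252). It covers the start site whose upstream sequence is given above. Its summit pileup was 103 in WT 1, 116 in WT 2 and 11 in edKO 2, with no peak called in edKO 1. The authors' −log10 p was 83.0, 103 and 5.61, and the edKO 2 level was 0.0943 of the WT mean. Both WT hearts were high, and the edKO 2 peak was at percentile 19.1 of its own list. Acsl1 held a second kept region, 55681 bp outside the gene and kept in edKO 1, with pileups of 30 in WT 1, 14 in WT 2 and 16 in edKO 1, so that here edKO 1 lay between the WT hearts. The gene's 5 regions called in both WT hearts included 2 called in all 4 hearts and 1 called in neither edKO heart.

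Fabp3, the fatty acid binding protein of heart muscle, also held 1 kept region of each kind. Its region 8983 bp from the gene (chr4:130298861-130299755) had pileups of 97 in WT 1, 110 in WT 2 and 20 in edKO 2, and a −log10 p of 55.9, 71.4 and 8.15. With windows around summits the edKO 2 call was lost. The edKO 2 summit thus lay apart from the WT summits, and these pileups are not of the same position. The region 1544 bp from the gene, kept in edKO 1, had pileups of 50, 58 and 24. In both the edKO heart was below both WT hearts, and 3 further Fabp3 regions were called in all 4 hearts.

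Abca1, the cholesterol exporter that LXR and RXR regulate, held 4 kept regions. The strongest, intergenic and 57523 bp from the gene (chr4:53217511-53218413), had pileups of 71 in WT 1, 61 in WT 2 and 11 in edKO 2. It covers a listed start of Lexis1, a non-coding RNA gene. A region 980 bp from the gene end had pileups of 42, 35 and 9 in WT 1, WT 2 and edKO 1. The other 2 were weaker and kept in edKO 1. Thus 3 of the 4 were seen in edKO 1 and the strongest in edKO 2 only, and the region over the gene end itself was called in all 4 hearts.

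Klf15, a zinc finger factor of cardiac lipid and amino acid metabolism, held 1 kept region (chr6:90450659-90451132, 9911 bp from the gene). Its pileup was 47 in WT 1, 61 in WT 2 and 11 in edKO 2, and its −log10 p in edKO 2 of 4.12 was among the lowest in that list (percentile 1.88). A separate region beside it (chr6:90450206-90450537) had pileups of 27 in WT 1 and 13 in edKO 1, and no call in WT 2 or edKO 2. Scaled for depth, that edKO 1 peak (level 8.59) was above the edKO 2 peak of the kept region (5.72). With windows around summits the Klf15 region was still called in edKO 2 only, and no alternative processing gave it an edKO 1 call. The remaining strong regions kept in edKO 2 were those of Plpp3, a lipid phosphate phosphatase (49, 52 and 10 in WT 1, WT 2 and edKO 2), Gm31513 (46, 73 and 32), and the extracellular proteases Adamts3 (33, 45 and 17) and Adamts15 (41, 41 and 14). Coro2b, an actin-binding coronin, and Sh2d3c, a signalling adaptor, completed the 10 strongest with 48, 40 and 16, and with 47, 43 and 21. In all 10 edKO 2 was below both WT hearts, in pileup and in level. The choice by high WT strength and a missing edKO 1 call favours this, so it is a description.

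The strongest region kept in edKO 1 lay in Impa2, an inositol monophosphatase gene on chromosome 18 (67311724 to 67312672). Its pileup was 83 in WT 1, 106 in WT 2 and 14 in edKO 1, with a −log10 p of 53.8, 79.2 and 7.48. Of the 9 Impa2 regions that both WT hearts shared, 6 were called in neither edKO heart and 2 in all 4. Lipe, which encodes hormone-sensitive lipase, had a gene body region (chr7:25386242-25386719) with pileups of 89, 86 and 21. Slc1a2, a glutamate transporter, had 52, 53 and 11, and Gm7072 had 38, 47 and 8. At these 4 the edKO 1 level was 0.177, 0.286, 0.250 and 0.225 of the WT mean.

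Other strong regions kept in edKO 1 were less far below the WT hearts. Tpi1, the glycolytic triosephosphate isomerase, had pileups of 83 in WT 1, 70 in WT 2 and 44 in edKO 1 at its gene end, a level ratio of 0.686. Fkbpl, at its own gene end, had 64, 95 and 45, a ratio of 0.675. The regions of Oxr1, an oxidation resistance gene (52, 47 and 25), Nfia, a transcription factor (67, 61 and 29), Nanog, a pluripotency factor (46, 60 and 21), and Pdzd2 (80, 75 and 21) lay between. In all 10 edKO 1 was below both WT hearts, in pileup and in level, while edKO 2 had no call in these regions. Here too the choice by high WT strength and a missing call favours lower edKO values. At Tpi1 a separate gene end region nearby (chr6:124813473-124813869) was called in all 4 hearts, with a pileup of 27 in edKO 2.

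**Figure D4:**
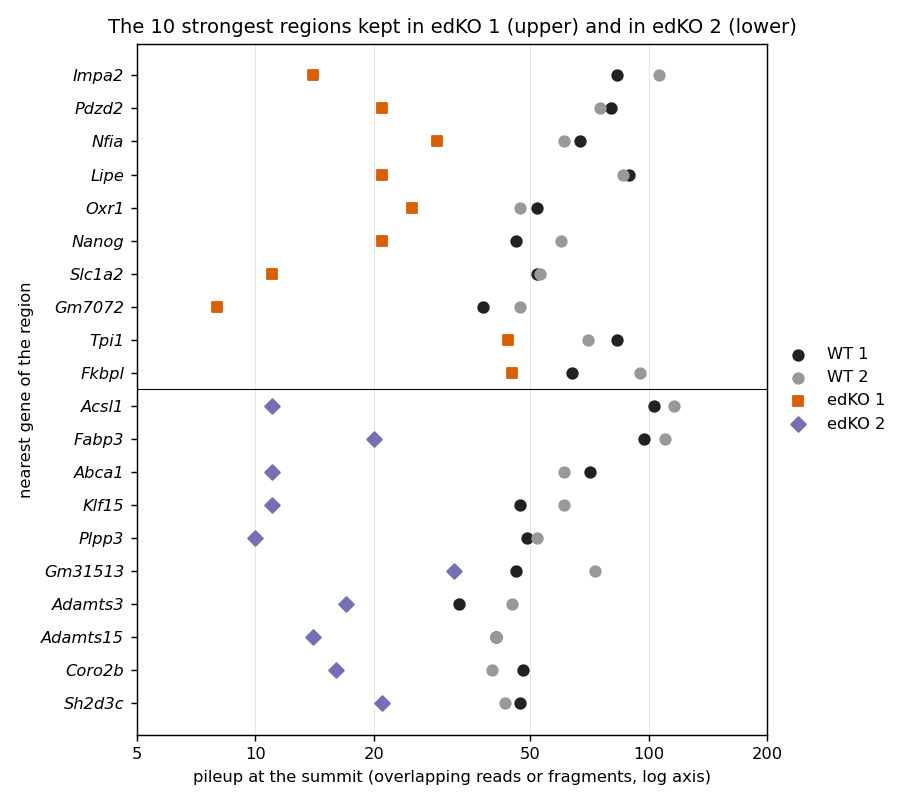
Summit pileup (x axis, log scale) at the 10 strongest regions kept in edKO 1 and the 10 strongest kept in edKO 2, named by the assigned gene, with a point for each WT heart and for the edKO heart that kept the region. The edKO point lies below both WT points in all 20 regions, from 11 against 103 and 116 at Acsl1 to 44 against 83 and 70 at Tpi1. The regions were chosen for high WT strength and a missing call, so this is a description.

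The fatty acid list (43 genes) had 110 regions that both WT hearts shared, and 26 of these (23.6%) were kept in exactly 1 edKO heart, 20 in edKO 1 and 6 in edKO 2. This share was near the 20.9% of all regions, but the comparison was not matched for strength. The 110 regions had a median WT strength of 72.0, beside 61.3 for all regions. In bin 7, which spans strengths of 69.6 to 77.8 and holds this median, 8.49% of all regions were kept in 1 edKO heart. That bin is not a match for strength either, since the list's regions spread over many bins. The share ran from 0.0382% in bin 10 to 39.2% in bin 3. The median level ratio was 0.556 over the 20 kept in edKO 1, beside 0.795 over all regions kept there, with median WT strengths of 58.7 and 45.4. Over the 6 kept in edKO 2 it was 0.811, beside 0.731. Slc27a1, a fatty acid transporter, had pileups of 70 in WT 1, 65 in WT 2 and 25 in edKO 1 at the gene end shown above. Acacb, the acetyl-CoA carboxylase whose product restrains fatty acid import into mitochondria, had 65, 63 and 15 at its gene end. Hadhb, of the mitochondrial trifunctional protein, had 44, 43 and 14, and Eci2, an enoyl-CoA isomerase, had 27, 32 and 8. Acadvl, the very-long-chain acyl-CoA dehydrogenase, had 49, 57 and 18 at the gene end whose AGGTCA is shown above. In these 5 regions the WT pileups were close to each other and edKO 1 was below both. A separate Slc27a1 region near the kept one (chr8:71569367-71570708) was called in all 4 hearts, with a pileup of 33 in edKO 2.

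Cd36, the main fatty acid uptake protein of the heart, was the gene of the list with most kept regions. It had 9 regions called in both WT hearts, 6 of them kept in edKO 1, 0 in edKO 2 only, 3 in neither and 0 called in all 4. The region over the additional start whose sequence is shown above (chr5:17835625-17836230) had pileups of 37 in WT 1, 26 in WT 2 and 13 in edKO 1. A gene body region (17849640 to 17850011) had 23, 37 and 10, and an intergenic region (17923757 to 17924583) had 21, 22 and 8. The other 3 had WT pileups of 10 to 18 and edKO 1 pileups of 9 to 14. No Cd36 region called in both WT hearts was thus called in edKO 2.

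The list of PPAR and other RXR partner targets (39 genes) had 20 kept regions among 93 (21.5%), 13 in edKO 1 and 7 in edKO 2, while 31 (33.3%) were called in neither edKO heart, against 18.3% of all regions. Txnip, a regulator of glucose uptake, had pileups of 87 in WT 1, 82 in WT 2 and 30 in edKO 1. Dhrs3, a retinaldehyde reductase, had 34, 50 and 13 in a region kept in edKO 1. Plin5, a lipid droplet protein of oxidative muscle, had 48, 41 and 21 in its gene end region kept in edKO 2. Angptl4, an inhibitor of lipoprotein lipase, had 52, 54 and 14 at its gene end, kept in edKO 1, and 24, 15 and 13 in an intergenic region. Pdk4, the kinase that shuts off pyruvate dehydrogenase, had 0 kept regions, with 1 region called in all 4 hearts and 2 in neither edKO heart.

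**Figure D5:**
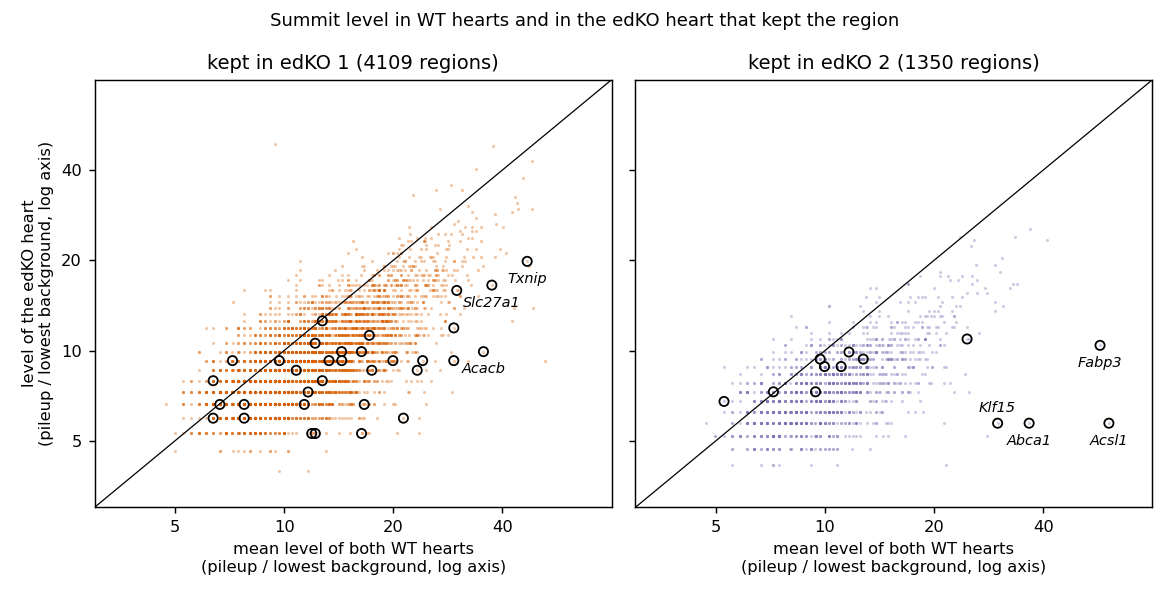
Summit level (pileup divided by the lowest background of the library) in the edKO heart (y axis, log scale) against the mean of both WT hearts (x axis, log scale) for every region kept in edKO 1 (left) and in edKO 2 (right), with regions of the fatty acid and RXR partner target lists circled and the diagonal marking equal levels. Acsl1, Fabp3, Abca1 and Klf15 lie far below the diagonal in the edKO 2 panel, at ratios from 0.0943 (Acsl1) to 0.191 (Klf15). At Fabp3 the edKO 2 summit lay apart from the WT summits of the region.

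The nuclear receptor and coregulator list had 21 kept regions among 119 (17.6%). Rxra, one of the deleted genes, held 3: a gene body region kept in edKO 2 had pileups of 35 in WT 1, 31 in WT 2 and 19 in edKO 2, and the other 2 were kept in edKO 1 with 24, 24 and 23 and with 26, 31 and 20. Scaled for depth, the level at the former of these was 1.14 times the WT mean. Rxrb held 0. These are peaks at gene coordinates and do not show which exons were deleted. The strongest kept regions of the list belonged to Nr3c2, the mineralocorticoid receptor (50, 38 and 21 in edKO 1), and Rara, a retinoic acid receptor (37, 53 and 17).

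Genes of the contractile apparatus and of energy supply other than fatty acids had shares near or below that of all regions. The sarcomere and excitation-contraction list had 34 of 172 (19.8%), with 115 called in all 4 hearts. Ryr2, the calcium release channel, had 65 in WT 1, 88 in WT 2 and 19 in edKO 1. Atp2a2, the calcium pump of the sarcoplasmic reticulum, had 45, 67 and 27 in edKO 2, and Csrp3, a muscle LIM protein, 24, 35 and 9 in edKO 1. Glycolysis and glucose use had 16 of 82 (19.5%), led by Tpi1, by Slc16a3, a lactate transporter (48, 45 and 24 in edKO 1), and by Pdp1, which activates pyruvate dehydrogenase (23, 27 and 11). Oxidative phosphorylation and the TCA cycle had 6 of 61 (9.84%), the lowest share among lists with more than 30 such regions, with 47 called in all 4. The median WT strength of these 61 regions was 77.8, beside 61.3 for all regions. In bins 7 and 8, which span strengths of 69.6 to 85.3, 8.49% and 1.45% of all regions were kept in 1 edKO heart. These bins lie around the median and are not a match for strength. Among the 6 were regions of Cox8b, a cytochrome oxidase subunit (44, 29 and 14 in edKO 1), Idh3a, of isocitrate dehydrogenase (26, 21 and 15), and Cycs, cytochrome c (20, 24 and 11).

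Cardiac transcription factors had 41 of 171 (24.0%). Prox1, a homeobox factor, had 11 regions called in both WT hearts: 7 were kept in edKO 1, 0 in edKO 2 only, 4 in neither and 0 called in all 4. Its strongest (chr1:190061603-190062292) had 28 in WT 1, 53 in WT 2 and 15 in edKO 1, and its gene end region had 26, 21 and 21. Ankrd1, a stress-responsive nuclear and sarcomere protein, had 31, 30 and 19, and Myocd, the coactivator of serum response factor, 56, 63 and 38. Cell cycle genes had 13 of 62 (21.0%), including Mki67 (18, 37 and 9 in edKO 1), Ccnd3 (39, 48 and 26 in edKO 1) and Aurkb (29, 36 and 18 in edKO 2).

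The marker lists of other cardiac cells stood on small numbers, to be read beside the 20.9% of all regions. The median WT strength of their regions was 48.0 for endothelial, 51.1 for fibroblast and 51.5 for smooth muscle markers, beside 61.3 for all regions. In bins 3 and 4, which span strengths of 34.5 to 52.5, 39.2% and 38.3% of all regions were kept in 1 edKO heart. These bins lie around the medians and are not a match for strength. Endothelial and endocardial markers had 20 of 63 (31.7%), 17 kept in edKO 1 and 3 in edKO 2, led by Cdh5 (28, 28 and 13 in edKO 1), Flt1 (17, 28 and 17) and Vwf (31, 24 and 13). Smooth muscle and pericyte markers had 14 of 41 (34.1%), 11 kept in edKO 1 and 3 in edKO 2, led by Mylk with 39, 40 and 21 and with 18, 29 and 15, and by Abcc9 (29, 16 and 15). Fibroblast markers had 3 of 24 (12.5%), 0 kept in edKO 1 and 3 in edKO 2. These were a Gsn region with 21 in WT 1, 22 in WT 2 and 19 in edKO 2, and Fbln2 regions with 16, 20 and 19 and with 15, 15 and 16. In both Fbln2 regions the level scaled for depth lay between those of the WT hearts.

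Epicardial markers had 3 of 9 regions, in Wt1 (21, 25 and 15 in edKO 1) and Tbx18 (13, 22 and 6 in edKO 1, and 14, 16 and 12 in edKO 2). Neuronal and Schwann markers had 3 of 9, in Dbh (24, 36 and 11 in edKO 1), Th (13, 21 and 21) and Foxd3 (9, 16 and 8). Immune markers had 1 of 7, in Laptm5 (22, 25 and 18 in edKO 1), and erythroid markers 0 of 5. Housekeeping genes had 6 of 48 (12.5%), including Ywhaz regions kept in edKO 1 (33, 28 and 15, and 22, 29 and 15). In whole hearts, fewer cells of a type and lower accessibility per cell cannot be told apart, and the part of cell composition in these calls was not tested.

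The kept regions were spread over 4030 genes, and 1011 genes held at least 2. Of these 1011, 516 had all of theirs kept in edKO 1, 50 all in edKO 2, and 445 had regions kept in different hearts. Consecutive kept regions within 10 kb of each other were kept in the same heart in 61.0% of 387 pairs, beside 63.0% of 3050 pairs more than 100 kb apart and 62.8% for independent draws from the overall shares. Neighbouring regions thus shared a heart no more often than distant ones. The genes with most kept regions were Casz1, a zinc finger factor of heart development (9: 5 in edKO 1 and 4 in edKO 2, of 18 called in both WT hearts), Disc1, a scaffold protein (8 of 15), Mical2, an actin-oxidising enzyme (7 of 16), Prox1 (7 of 11) and Cd36 (6 of 9, level with 6 other genes). At Casz1 the edKO hearts alternated along the locus. Its strongest region (chr4:148940605-148940943) had 44 in WT 1, 53 in WT 2 and 20 in edKO 1, and the next kept region (chr4:148945404-148945942) had 30, 38 and 21 in WT 1, WT 2 and edKO 2.

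By chromosome, the share of regions kept in exactly 1 edKO heart ran from 17.5% on chromosome 19 to 23.5% on chromosome 1 among the autosomes. It was 13.4% on X (66 of 493), where edKO 1 kept 68.2% of them, and X held 1.10% of the regions kept in edKO 1 and 1.56% of those kept in edKO 2. Of all peaks of a list, X held 1.74% (WT 1), 1.78% (WT 2), 1.85% (edKO 1) and 2.25% (edKO 2).

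The thresholds that define the set are as follows. The most distant region inside lay 99931 bp from a gene end and the nearest one outside 100028 bp, and 620 further regions called in both WT hearts and 1 edKO heart lay beyond. Among the kept regions, the lowest −log10 p was 3.59 for WT 1, 3.95 for WT 2, 3.01 for edKO 1 and 3.48 for edKO 2. With 2 hearts against 2, the smallest two-sided p of an exact permutation test is 0.333, and no test was made.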

How the data were processed

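ATAC-seq peak lists of 4 whole newborn hearts, 1 per library, were used. The submitters' processing notes name, without roles, MACS2, Bowtie2, SAMtools, cutadapt, bcl2fastq and CASAVA, and the builds mm10 and GRCm38. The sources used here give no versions, Tn5 shift or handling of duplicates. The deposited lists give, for each peak, the summit's fold enrichment (a ratio of its pileup to the local background in that library), the −log10 p, the −log10 q-value and a score. The deposited q-value and score were not used. These are the authors' values, used to rank and describe peaks; ranks are compared within a list only. Pileups are printed unscaled beside each other as a description, and the level divides them by the lowest background of the library, which does not correct for enrichment.

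Peaks on chromosomes 1 to 19 and X were merged (1 bp overlap) and assigned to the nearest start or end coordinate of 21631 protein-coding genes of RefSeq GRCm38.p6. Regions within 1 kb of either coordinate were called gene end. The pileup and background were solved from the authors' fold and −log10 p as a Poisson tail, and 99.9858% to 100% of the peaks of each list had a whole pileup (tolerance 0.001 in −log10 p). This step was also checked on simulated data. Motifs were counted in 32619 promoter windows of 300 bases; DR1 with up to 2 mismatches was added after the other motifs had been fixed. Python 3.11.15, numpy 2.4.6, pandas 2.3.3 and scipy 1.17.1 were used.

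The named genes are those of the 10 strongest regions kept in each edKO heart, the 5 genes with most regions, and the 3 strongest regions of each of 16 gene lists (up to 6 for the fatty acid and RXR partner lists). Some regions that this rule names are not reported here. Acadvl, Mlh3 and Ttyh2 were shown by the rule for sequences. Angptl4, Pdk4, Rxra, Rxrb and weaker regions of Acsl1, Fabp3, Abca1 and Cd36 were described after their values were seen. The members and lists were chosen with earlier results of these data known. No test was made, since the calls define the groups. The alternatives were lists of equal length, stricter thresholds, another overlap rule, other distances and leaving out either WT heart.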

Additional observations from a re-analysis of the deposited data

How the results depend on the processing

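The number of regions kept in exactly 1 edKO heart (5459) was 3529 with all lists reduced to the length of the shortest, 2091 with a −log10 p of at least 10 required in both WT hearts and 3563 within 20 kb of a gene. Under the remaining alternatives it was within 1.5 times of that value, and it was 6612 to 7365 with 1 WT heart left out. The share kept in edKO 1 (75.3%) was 79.7% with lists of equal length, 83.8% with the WT threshold of 10, 69.6% where peaks had to cover at least 0.5 of a region, 72.5% within 20 kb, and 71.3% to 72.4% with 1 WT heart left out. In each alternative run, edKO 1 kept more regions than edKO 2, and gene ends were a larger share of the regions kept in edKO 2 than of those kept in edKO 1. The covering rule gave the widest gap, 42.4% against 20.8%.

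Of the 20 strongest regions, Gm7072, Klf15 and Plpp3 lost their edKO call when peaks under a −log10 p of 5 were dropped from all lists, and Fabp3 did with windows around summits. Where peaks had to cover at least 0.5 of the region, Impa2, Slc1a2, Gm7072, Acsl1, Abca1, Plpp3 and Adamts15 lost it, since their edKO peak covered less than that. Within 20 kb 13 of the 20 were left. The regions of the fatty acid list numbered 15 within 20 kb and 16 with the WT threshold of 10, against 26. Those of the RXR partner target list numbered 13 with lists of equal length, 9 with the WT threshold of 10 and 13 within 20 kb, against 20. The cause was not tested, beyond the smaller number of regions these rules admit. Leaving out an edKO heart could not be run, since the definition needs both. No paired analysis was possible because the values come from calls and from no test. The lists hold no read totals, and the part of depth in which weak regions were called was not tested.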
